A study of Gallus gallus with 5 samples.

Results

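Collagen chains, the polypeptides that wind around each other into the triple helices of connective tissue, were examined in chicken wing follicles that were regrowing their flight feathers. Genes were taken by symbol, as every symbol that begins with COL, a number, A and a number, with COL17A1 left out. The rule found 37 of the 17108 genes measured. Of these, COL4A3BP encodes a ceramide transfer protein and no collagen, and was set apart. The other 36 were collagen chains, 7 of them fibrillar, 6 of basement membrane type IV collagen, 10 fibril-associated and 13 of other kinds. COL1A1, which pairs with COL1A2 in type I collagen, was not analysed here.

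Follicles were plucked so that feathers regrew, and each of the 5 libraries held total RNA pooled from 5 of them. The treated groups were Wnt5a overexpression with the lentiviral vector pLVX-Zsgreen, lnc7831 knockdown and lnc3500 knockdown, both with the lentiviral vector pLL3.7, and each had 1 library. The untreated group was wild type, with 2 libraries. The labels name no library with an empty vector, and give neither strain nor age. Nothing says whether the libraries came from separate birds, so the spread between the wild types may be technical. The tag T4 stands only in the wild-type titles and is not explained, so treatment and any difference marked by it cannot be told apart.

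The labels give the source as dermal papilla, the mesenchyme at the follicle base, and the tissue as whole follicle. Markers of both mesenchyme and epidermis were measured. The 7 measured fibroblast and papilla markers, among them DCN, LUM and THY1, summed to 1710, 2109 and 2236 FPKM in the library labelled Wnt5a overexpression and in lnc7831 and lnc3500 knockdown, against 1192 and 1336 in wild type. After median centring these sums were 1468, 1673 and 1873, against 1587 and 1703. The 8 epidermal markers, with KRT5 listed at 0 throughout, summed to 5913, 5825 and 5163 FPKM in the same order, against 1164 and 2430 in wild type, and centred sums were 5076, 4621 and 4326, against 1549.97 and 3098. Of the 7 tested epidermal markers 7, 6 and 7 lay above the wild-type mean, and of the 7 fibroblast markers 4, 5 and 3. Of all tested genes 50.1%, 50.4% and 49.7% did. Wild-type library 1 thus had the lowest epidermal sum. KRT14 had 621 FPKM there and 1743 in wild-type library 2, and KRT15 had 29.5 and 285. TP63, CDH1 and ITGB4 were also lower in library 1, while EPCAM (175 against 84.3 FPKM) and DSP (285 against 229) were higher. WNT5A itself had 75.7 FPKM in the library labelled Wnt5a overexpression, 162 with lnc7831 knocked down, where it was highest, and 43.8 with lnc3500 knocked down, against 29.7 and 64.3 in wild type. On the relative log2 scale the library labelled Wnt5a overexpression lay 0.19 (SE 0.59) above the wild-type mean, and the wild types were 1.04 apart. That library is therefore named by its label. The long non-coding RNAs lnc7831 and lnc3500 have no named entry, so the knockdowns could not be checked on their targets.

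Levels are FPKM as deposited, a unit that scales the fragments of a gene to transcript length and to all fragments mapped in its library. The median log2 difference of all 11031 tested genes from wild type was 0.54, 0.64 and 0.56 as deposited in the library labelled Wnt5a overexpression and in lnc7831 and lnc3500 knockdown. Differences are therefore relative to the median gene: each library was divided by its median factor (1.16, 1.26 and 1.19 in that order, against 0.751 and 0.784 in wild type), and log2(value + 1) was compared. Standard errors come from limma over all tested genes. A gene was called at an adjusted p below 0.05, and a rule of size, with no test, took genes at 2-fold or more beyond both wild types in 1 direction. In bulk tissue, fewer cells of a type and less RNA per cell cannot be told apart.

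Fibrillar collagens assemble into banded fibrils that give dermis its tensile strength, and type I is the main one of skin, with type III beside it and types V and XI in the fibril core. Type IV forms the sheet-like network of basement membranes under epidermis and around vessels. Fibril-associated chains decorate fibril surfaces, and other kinds build beaded filaments (type VI), short-chain networks (type VIII), anchoring fibrils (type VII) or sit in the cell membrane. In the feather follicle the dermal papilla and pulp are the collagen-rich mesenchyme, and a basement membrane parts them from the epithelium that makes the feather.

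Collagen transcripts were dominated by few chains. COL1A2, the alpha 2 chain of type I collagen, was the highest of the chains analysed. It had 2348 FPKM in the library labelled Wnt5a overexpression, 3996 with lnc7831 and 2914 with lnc3500 knocked down, against 1213 and 1003 in wild type. COL6A2, an alpha 2 chain of the beaded-filament type VI, was next by mean level. It had 836, 1187 and 1084 FPKM in the 3 treated libraries, against 538 and 519 in wild type, the treated values being in the order just given. COL3A1, the sole chain of type III collagen, had 532, 1421 and 749.8 FPKM in the 3 treated libraries, against 379 and 279.9 in wild type. In all 3 chains both wild types lay below every treated library as deposited. On that scale 87.6%, 93.1% and 90.1% of all tested genes lay above the wild-type mean. This order is therefore not set apart from all genes. After centring, COL3A1 in the library labelled Wnt5a overexpression lay between the wild types. COL6A2 in that library had 717.9 centred FPKM, against 717.0 and 661 in wild type.

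COL6A1 and COL6A3, the partners of COL6A2, had lower levels per length. COL6A1 had 523, 857 and 618 FPKM in the 3 treated libraries, against 390.3 and 336 in wild type, and COL6A3 had 123, 227 and 156 FPKM in the 3 treated libraries, against 99.7 and 97.3 in wild type. The 5 highest chains of each library held 83.3%, 84.7% and 84.1% of the summed collagen FPKM in the library labelled Wnt5a overexpression and in lnc7831 and lnc3500 knockdown, against 84.0% and 78.3% in wild type. COL1A2 alone held 43.8%, 43.2% and 44.0% in the treated libraries, against 38.9% and 33.5% in wild type. COL1A1 is not in these sums.

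**Figure D1:**
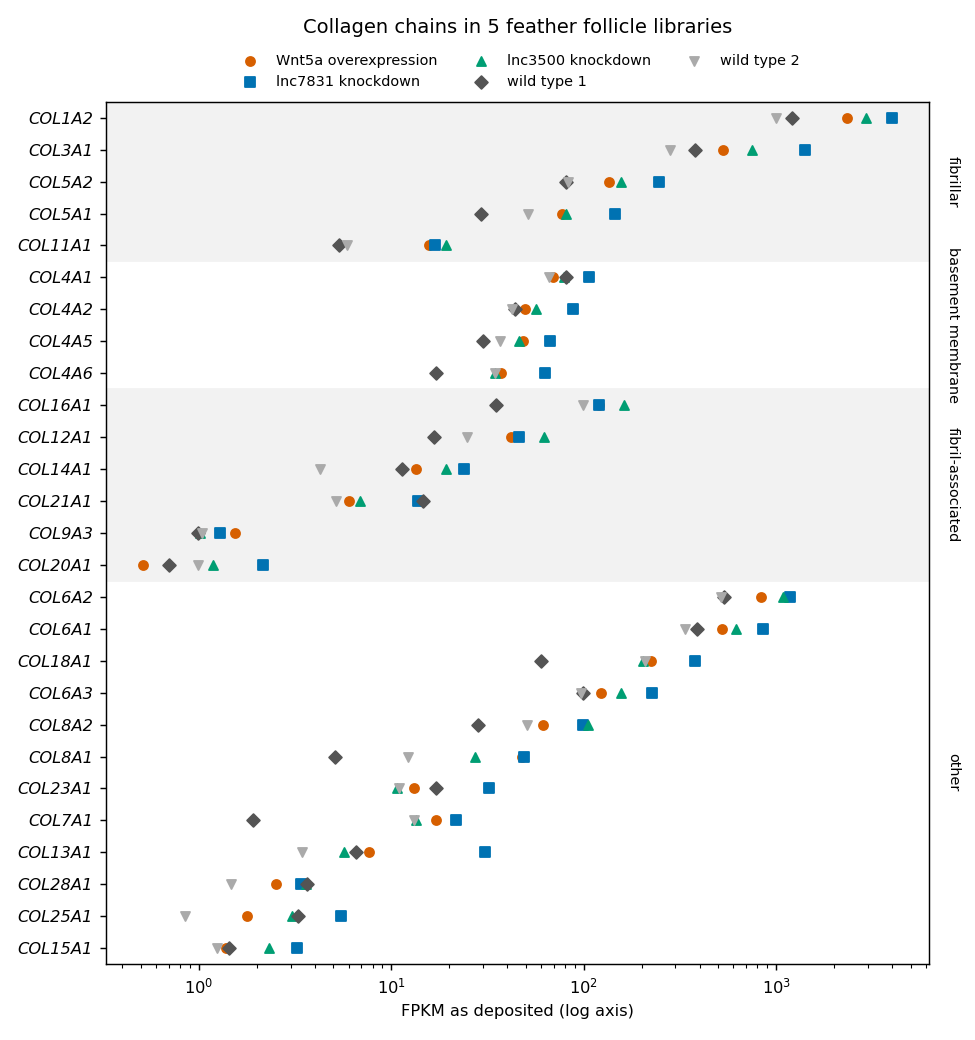
Level of the 27 tested collagen chains in each library, as deposited FPKM on a log axis, with 1 symbol per library and chains ordered by class and mean level. COL1A2 reaches 3996 FPKM in lnc7831 knockdown, while COL9A3 lies between 0.992 and 1.54 FPKM and COL20A1 between 0.514 and 2.15.

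At intermediate levels were the remaining fibrillar, type IV and network chains. COL5A2 and COL5A1, chains of type V collagen, which helps start fibril assembly, averaged 141 and 76.8 FPKM over the 5 libraries. COL18A1, the multiplexin of basement membrane zones that yields endostatin, averaged 215 FPKM, and COL16A1, a fibril-associated chain, 107 FPKM. The type IV chains followed the order COL4A1, COL4A2, COL4A5 and COL4A6, with means of 80.4, 56.0, 45.6 and 37.3 FPKM. That order held within each of the 5 libraries, though the ranges of neighbours in it overlapped over the libraries. COL4A2 had 49.5, 87.6 and 56.6 FPKM in the 3 treated libraries, against 44.1 and 42.3 in wild type, and COL4A6 had 37.1, 62.8 and 34.8 FPKM in the 3 treated libraries, against 17.0 and 34.8 in wild type. COL4A5 lay between 30.1 and 66.9 FPKM.

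The fibril-associated chain COL14A1 had 13.4, 23.9 and 19.3 FPKM in the 3 treated libraries, against 11.3 and 4.26 in wild type. COL8A2, which joins COL8A1 in type VIII collagen, had 61.1, 99.0 and 106 FPKM in the 3 treated libraries, against 28.3 and 51.0 in wild type. COL20A1, another fibril-associated chain, had 0.514, 2.15 and 1.19 FPKM in the 3 treated libraries, against 0.702 and 0.986 in wild type. Of the remaining tested chains, COL28A1 lay between 1.47 and 3.67 FPKM, COL15A1, a multiplexin like COL18A1, between 1.25 and 3.24, and COL9A3 between 0.992 and 1.54.

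At the low end, 9 chains had a mean below 1 FPKM and were not tested. COL19A1, a fibril-associated chain, lay just outside that minimum with a mean of 0.999 FPKM, and COL20A1 and COL9A3 just inside with 1.11 and 1.17. COL24A1, COL9A2 and COL4A3 had means of 0.914, 0.864 and 0.734 FPKM. COL22A1, COL10A1, COL9A1 and COL4A4 stayed at or below 0.0647 FPKM in every library. COL2A1, the main fibrillar collagen of cartilage, was listed at 0 in all 5 libraries, and an exact 0 may be a failed estimate. The 5 measured cartilage markers summed to 21.8, 20.4 and 35.6 FPKM in the library labelled Wnt5a overexpression and in lnc7831 and lnc3500 knockdown, against 11.3 and 21.4 in wild type. MATN1, a matrilin of cartilage, stayed at or below 0.261 FPKM. ACAN had 7.38, 7.25 and 24.1 FPKM in the treated libraries, against 2.81 and 10.5 in wild type, and SOX9 lay between 4.47 and 9.01.

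The first comparison asked how collagen transcripts in lnc7831 knockdown stood against wild type. In this library 23 of 27 tested chains lay above the wild-type mean, where 50.4% of all tested genes did. Above both wild types lay 21 chains, where 31% of all tested genes did, and below both lay 1, where 32.3% did. Above the wild-type mean lay 27 chains as deposited and 18 after rescaling to equal sums, where 93.1% and 18.8% of all tested genes did. Above both wild types lay 25 and 9 chains. For the 25 and 9 the shares of all tested genes are not given, so these counts are not set apart from all genes. The same wild types serve all 3 treated libraries, so these comparisons are not independent of each other. The 5 fibrillar chains were all above both. The 3 chains at least 2-fold above both were COL3A1, COL13A1 and COL8A1, and 0 were at least 2-fold below both, against a background of 1.64% of tested genes above and 1.32% below. Limma called 0 of the 27 chains after adjustment (adjusted p of 1 for each) and took 3 at an unadjusted p below 0.05, the same 3 chains, where it called 0.0363% and took 3.04% of all tested genes.

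COL13A1, a collagen that spans the cell membrane at adhesion sites, had 7.66 FPKM in the library labelled Wnt5a overexpression, 30.6 with lnc7831 and 5.69 with lnc3500 knocked down, against 6.59 and 3.46 in wild type. Its value in lnc7831 knockdown stood above all 4 other libraries, which overlapped one another. On the relative log2 scale lnc7831 knockdown stood at 1.80 (SE 0.49). COL3A1 stood at 1.41 (SE 0.46), with its levels given above, also above all 4 other libraries. COL8A1, a chain of the short-chain network collagen VIII of vessel walls and Descemet's membrane, had 48.0 FPKM in the library labelled Wnt5a overexpression, 48.7 with lnc7831 and 27.4 with lnc3500 knocked down, against 5.11 and 12.3 in wild type. All 3 treated libraries lay above both wild types for COL8A1, as they did for 7 of the 27 chains after centring. The share of all tested genes with this order is not given, so it is not set apart from all genes. The difference of COL8A1 in lnc7831 knockdown was 1.80 (SE 0.59).

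Among the other fibrillar chains, COL5A1 had 77.0, 145 and 80.8 FPKM in the 3 treated libraries, against 29.3 and 51.4 in wild type, and stood at 1.17 (SE 0.49) in lnc7831 knockdown. COL1A2 stood at 1.14 (SE 0.44) and COL5A2 at 0.86 (SE 0.38) there. COL5A2 had 136, 246 and 157 FPKM in the 3 treated libraries, against 81.4 and 83.2 in wild type, so that the wild types were nearly equal. COL11A1, a chain of type XI collagen, stood at 0.80 (SE 0.31). The fibrillar median was 1.14, against about 0 over all tested genes.

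**Figure D2:**
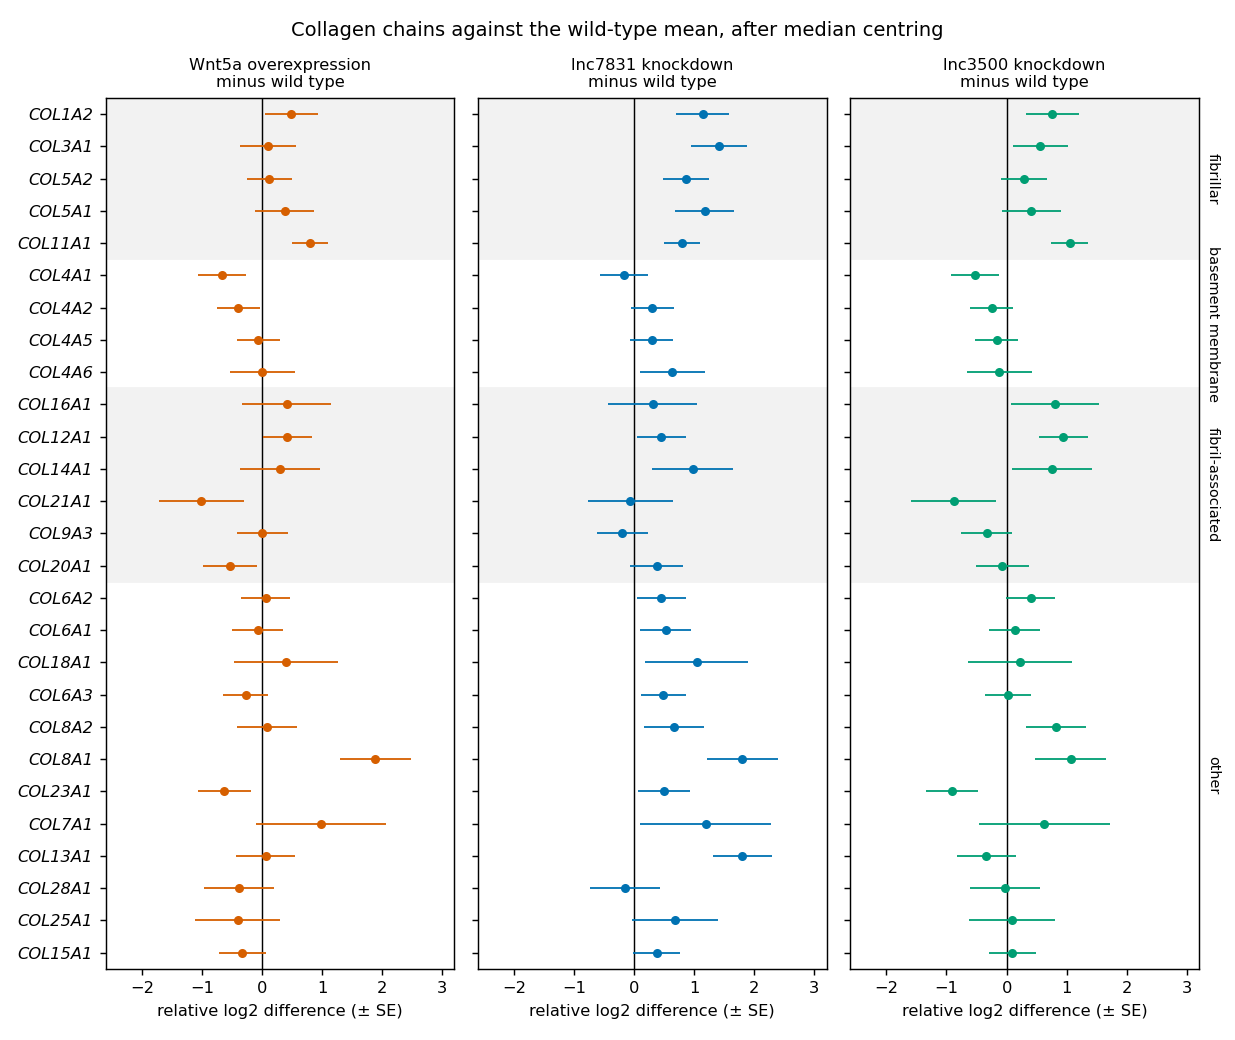
Relative log2 difference of each of the 27 tested chains from the wild-type mean, with the limma standard error as a bar, in 1 panel per treated library. In lnc7831 knockdown the 5 fibrillar chains lie between 0.80 and 1.41, and COL4A1 lies below 0 in each panel.

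Type VI chains lay closer together, at 0.53 for COL6A1, 0.49 for COL6A3 and 0.45 for COL6A2, with all 3 above both wild types, though COL6A2 was at -0.019 after rescaling to equal sums. The type IV chains had a median of 0.29, which was -0.17 after rescaling to equal sums, where the median of all genes was -0.40, with COL4A6 at 0.63 (SE 0.54), COL4A2 at 0.30 (SE 0.36), COL4A5 at 0.29 (SE 0.36) and COL4A1 at -0.17 (SE 0.40). COL4A1 had 69.4, 107 and 78.6 FPKM in the 3 treated libraries, against 81.0 and 66.3 in wild type, and after centring lay between the wild types in lnc7831 knockdown. The 6 tested fibril-associated chains had a median of 0.34, or -0.083 after that rescaling, with COL14A1, which binds fibrils of mature dermis, at 0.97 (SE 0.67) and COL9A3 lowest at -0.20 (SE 0.43), or 0.18 as deposited. COL7A1, the anchoring fibril that fastens epidermis to dermis, stood at 1.19 (SE 1.09) and COL18A1 at 1.04 (SE 0.86), each with a wild-type difference larger than that.

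Over all 27 chains the median in lnc7831 knockdown was 0.53, against about 0 over all tested genes, and it was 0.51 with wild-type library 2 and 0.48 with library 1 as the only comparator. The median chain stood 0.56 above the median gene on values as deposited and 0.48 above it on values rescaled to equal sums in all libraries. The count of chains at least 2-fold above both wild types depended on the setting. It was 11 as deposited, 1 after rescaling to equal sums, 9 without wild-type library 2 and 6 without library 1. Leaving out a wild type loosens the rule, so the last 2 counts could only stay or rise. Shares of all tested genes at these settings are not given, so the counts are not set apart from all genes.

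In these lnc7831 knockdown follicles the fibroblast and papilla markers did not lie together: PDGFRA, a receptor of dermal fibroblasts, stood at 0.62 (SE 0.33), while DCN and LUM, proteoglycans of dermal fibrils, stood at -0.17 and 0.043. Of the 7 fibroblast markers 5 lay above the wild-type mean and 2 below, with a median of 0.27 and 0 at least 2-fold beyond both wild types. HBG2, a globin gene of red blood cells, had 56.9 FPKM against 12.6 and 10.6 in wild type, the other 2 listed globin genes being at 0. The part of cell make-up in the collagen values was not tested.

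In the library labelled Wnt5a overexpression, 16 of 27 chains lay above the wild-type mean, where 50.1% of tested genes did. The median was 0.059, against about 0 over all tested genes. Above both wild types lay 8 chains, where 31.8% of tested genes did, and below both lay 7, where 32.8% did. COL8A1 was the 1 chain at least 2-fold above both wild types, where 2.18% of tested genes were, and 0 chains were at least 2-fold below both, where 1.74% were. Its relative log2 difference was 1.89 (SE 0.59), on the levels given above. Limma called 0 chains after adjustment (adjusted p of 1 for each) and took 1 at an unadjusted p below 0.05, COL8A1, against 0.00907% and 4.01% of all tested genes. Without wild-type library 2 the size rule, which is then looser, took 4 chains above and 2 below, and as deposited it took 2 above. Shares of all tested genes at these settings are not given.

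The fibrillar chains lay above the median gene in the library labelled Wnt5a overexpression, with 5 of 5 above the wild-type mean, a median of 0.38 and 4 above both wild types, where 31.8% of tested genes were. COL11A1 led them at 0.80 (SE 0.31), with 15.7, 16.9 and 19.4 FPKM in the 3 treated libraries, against 5.33 and 5.91 in wild type. Both wild types were nearly equal for COL11A1. It is among the 7 chains of 27 with every treated library above both wild types after centring. COL1A2 stood at 0.49 (SE 0.44), and COL3A1 at 0.11 (SE 0.46).

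Type IV chains lay below the median gene in the same library, with 3 of 4 below the wild-type mean and a median of -0.23. That median was 0.36 as deposited and -0.078 after rescaling to equal sums, where the median of all genes was 0.54 and 0.14. COL4A1 stood at -0.67 (SE 0.40) and COL4A2 at -0.40 (SE 0.36), both below both wild types after centring, where 32.8% of tested genes were. COL21A1, a fibril-associated chain, was lowest of all chains at -1.01 (SE 0.71), with 6.03, 13.7 and 6.87 FPKM in the 3 treated libraries, against 14.6 and 5.19 in wild type. Its wild types differed by -1.42 (library 2 minus library 1), and the treated values lay below both of them, after centring, in the libraries labelled Wnt5a overexpression and lnc3500 knockdown. COL20A1 stood at -0.54 (SE 0.45). COL23A1, a membrane-spanning chain, stood at -0.62 (SE 0.43).

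In lnc3500 knockdown, 17 of 27 chains lay above the wild-type mean, where 49.7% of tested genes did. Above both wild types lay 12, where 31.9% did, and below both lay 6, where 32.2% did. The count above both was 18 as deposited and 4 after rescaling to equal sums, without the shares of all tested genes. The median was 0.13, against about 0 over all tested genes. The median was 0.77 as deposited and -0.19 after rescaling to equal sums, and on those scales the median of all genes was 0.56 and -0.38. COL11A1 was the 1 chain at least 2-fold above both wild types, where 1.43% of tested genes were, and 0 chains were at least 2-fold below both, where 1.64% were. It stood at 1.05 (SE 0.31) and narrowly past the rule, since the count was 0 with a minimum mean of 5 FPKM or after rescaling to equal sums. Without wild-type library 1 the count was 2 and without library 2 it was 7, under a rule that is then looser. As deposited it was 6. These counts too stand without the shares of all tested genes. Limma called 0 chains (adjusted p of 1 for each) and 0% of all tested genes, and took 1 chain, COL11A1, at an unadjusted p below 0.05, against 3.08% of all tested genes.

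The fibrillar chains had a median of 0.56 in lnc3500 knockdown, with 5 of 5 above both wild types, where 31.9% of tested genes were. After rescaling to equal sums it was 3 of 5, and the share of all tested genes after that rescaling is not given. COL1A2 stood at 0.76 (SE 0.44). Fibril-associated COL12A1, found on fibrils of dense connective tissue, had 41.8, 46.2 and 62.0 FPKM in the 3 treated libraries, against 16.7 and 24.9 in wild type, and stood at 0.94 (SE 0.41). Every treated library lay above both wild types for COL12A1. After centring this held for 7 of the 27 chains, also COL1A2, COL5A1, COL5A2, COL6A2, COL8A1 and COL11A1. Every treated library lay below both for 0 chains. The shares of all tested genes with either order are not given. COL16A1 stood at 0.80 (SE 0.74), with 119.7, 120.3 and 161 FPKM in the 3 treated libraries, against 35.1 and 99.2 in wild type and a wild-type difference of 1.42.

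COL8A1 and COL8A2, the partners in type VIII collagen, stood at 1.07 (SE 0.59) and 0.83 (SE 0.50) in lnc3500 knockdown. Type IV chains had a median of -0.20, with COL4A1 at -0.53 (SE 0.40). The type IV median was 0.42 as deposited and -0.63 after rescaling to equal sums, where the median of all genes was 0.56 and -0.38. COL23A1 was the lowest chain at -0.91 (SE 0.43), with 13.1, 32.4 and 10.8 FPKM in the 3 treated libraries, against 17.1 and 11.0 in wild type. Leukocyte markers were lower in the same library: 4 of 4 lay below the wild-type mean, where 49.7% of tested genes lay above it. At least 2-fold below both wild types lay 3 of the 4, where 1.64% of tested genes did. The leukocyte sum was 34.7 FPKM against 50.9 and 64.9 in wild type. The part of leukocytes in the collagen values was not tested.

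**Figure D3:**
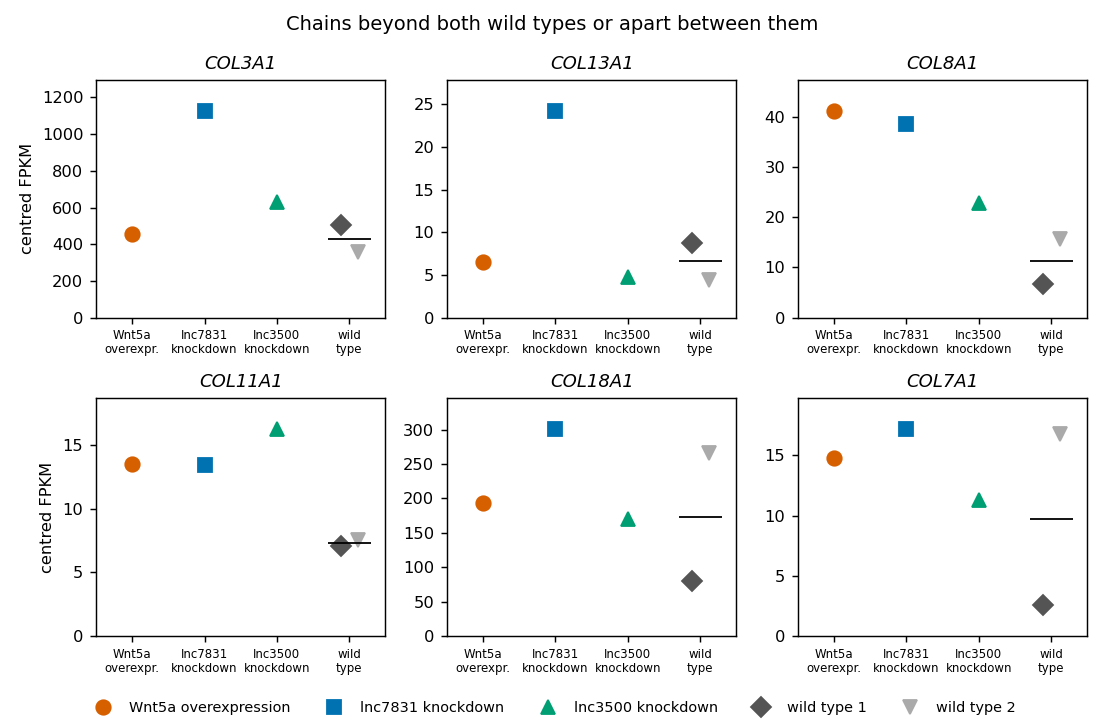
Centred FPKM of 6 chains, with 1 symbol per library and a line at the wild-type mean. COL3A1 and COL13A1 stand apart in lnc7831 knockdown, and COL18A1 and COL7A1 are low in wild-type library 1. COL8A1 and COL11A1 lie above both wild types in each treated library. They are among 7 of the 27 tested chains with that order.

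The wild types were themselves unequal for some chains. Of the 27 chains, 4 were at least 2-fold higher in wild-type library 2 than in library 1 and 4 at least 2-fold lower, where 8.42% of tested genes were higher and 3.64% lower. COL7A1 differed most, by 2.32 on the relative log2 scale, with 17.2 FPKM in the library labelled Wnt5a overexpression, 21.6 with lnc7831 and 13.5 with lnc3500 knocked down, against 1.92 and 13.2 in wild type. COL18A1 followed at 1.72, with 225, 379 and 204 FPKM in the 3 treated libraries, against 60.1 and 208 in wild type, and then COL16A1 at 1.42 and COL8A1 at 1.09. After centring, wild-type library 1 was the lowest of the 5 libraries for COL7A1, COL18A1 and COL16A1, and library 2 lay among the treated ones. The epidermal marker sum, most of it KRT14, was also lowest in wild-type library 1, though EPCAM and DSP were higher there than in library 2. The part of epidermis in these 3 chains was not tested. COL21A1 (-1.42), COL25A1 (-1.37), COL14A1 (-1.32) and COL28A1 (-1.03) were the 4 chains lower in wild-type library 2.

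Further comparisons placed the treated libraries beside each other, 1 library against 1, so that limma borrowed its spread from wild type. Against the library labelled Wnt5a overexpression, 23 of 27 chains were higher in lnc7831 knockdown, where 50.3% of tested genes were, with a median of 0.63, and 15 of 27 with a median of 0.017 after rescaling to equal sums, where the median of all genes was -0.54. The 4 chains at least 2-fold higher were COL13A1 at 1.74 (SE 0.56), COL3A1 at 1.30 (SE 0.53), COL23A1 at 1.12 (SE 0.50) and COL25A1 at 1.08 (SE 0.82), where 3.28% of tested genes were, and 0 were at least 2-fold lower, where 2.86% were. COL13A1, COL23A1 and COL25A1 are the 3 chains classed as membrane-spanning among those analysed, from which COL17A1 was left out at the start. COL25A1 was picked out after its values were seen. COL25A1 had 1.78, 5.47 and 3.06 FPKM in the 3 treated libraries, against 3.28 and 0.850 in wild type.

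Against lnc3500 knockdown, 22 of 27 chains were higher in lnc7831 knockdown, where 50.3% of tested genes were, with a median of 0.46, and 22 of 27 were higher also as deposited and after rescaling to equal sums. COL13A1 at 2.13 (SE 0.56) and COL23A1 at 1.41 (SE 0.50) were the 2 at least 2-fold higher, where 3.26% of tested genes were, and 0 were at least 2-fold lower, where 2.72% were. The library labelled Wnt5a overexpression had 19 of 27 chains below lnc3500 knockdown, where 47.5% of tested genes were, with a median of -0.20, but 23 of 27 above it and a median of 0.35 after rescaling to equal sums, where the median of all genes was 0.53. It had 0 chains at least 2-fold apart from lnc3500 knockdown in either direction, against 0.752% of tested genes higher and 0.988% lower. Limma called 0 chains in these 3 comparisons (adjusted p of 1 for each) and took 1, 1 and 0 at an unadjusted p below 0.05, COL13A1 both times, against 1.95%, 1.77% and 0.471% of all tested genes. After adjustment it called 0.0453%, 0.0272% and 0% of all tested genes.

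By highest library, lnc7831 knockdown held the top centred value for 17 of 27 chains, where it did for 18.7% of all tested genes. The library labelled Wnt5a overexpression held it for 2 chains (17.5% of tested genes) and lnc3500 knockdown for 4 (13.2%), against 4 in wild-type library 1 (28.9%) and 0 in wild-type library 2 (21.6%). The 4 in wild-type library 1 were COL4A1, COL21A1, COL25A1 and COL28A1.

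Shares within a library do not depend on how libraries are scaled. The sums hold no COL1A1, so the shares are those among the chains analysed. Fibrillar chains held 58.0%, 62.9% and 59.2% of the summed collagen FPKM in the library labelled Wnt5a overexpression and in lnc7831 and lnc3500 knockdown, against 54.8% and 47.5% in wild type. Type IV chains held 3.82%, 3.51% and 3.27% in the same order, against 5.53% and 6.04% in wild type. As deposited, their summed levels were 205, 325 and 217 FPKM, against 172 and 181 in wild type. The treated libraries lay above both wild types for the fibrillar share and below both for the type IV share, with 1 library per treated group and no test. Type VI chains, counted among the other kinds, held 27.7%, 24.5% and 28.1%, against 33.0% and 31.8% in wild type. The fibril-associated share, at 3.45%, 2.27% and 3.83% against 2.60% and 4.58% in wild type, showed no such order. COL18A1, of basement membrane zones but counted among the other kinds, held 4.20%, 4.09% and 3.08%. Its wild-type shares were 1.93% and 6.95%, on either side of these.

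The fibrillar share depended in part on COL1A2. With COL1A2 left out, fibrillar chains held 25.3%, 34.8% and 27.1% of the remaining sum in the treated libraries, against 26.0% and 21.1% in wild type, so the library labelled Wnt5a overexpression then lay between the wild types. The type IV share stayed below both wild types in each treated library without COL1A2, at 6.80%, 6.18% and 5.84% against 9.05% and 9.08%.

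**Figure D4:**
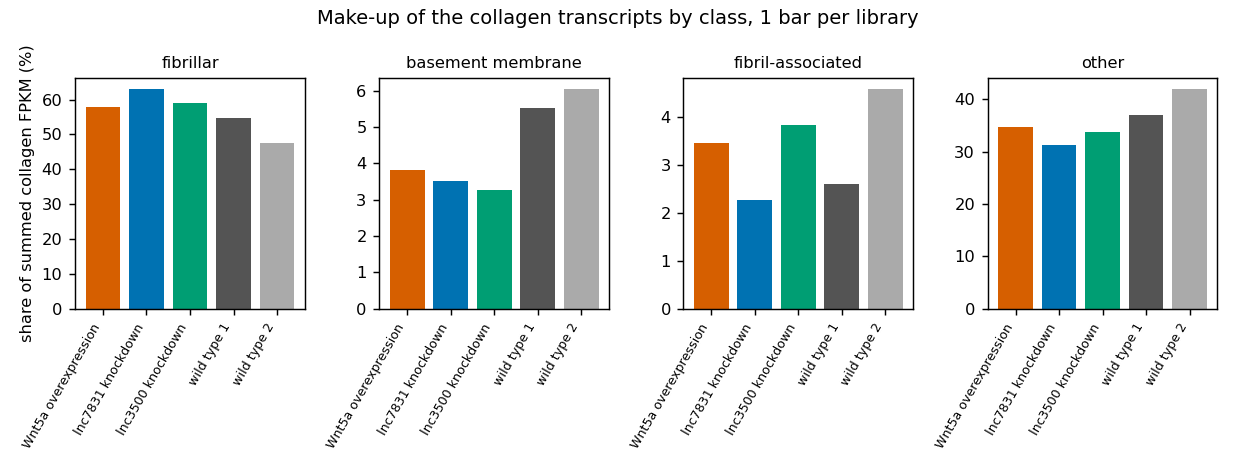
Share of the summed collagen FPKM held by each class, in percent, with 1 bar per library and a separate axis from 0 for each class. The fibrillar share is 58.0% to 62.9% in the treated libraries against 47.5% and 54.8% in wild type. The share of the basement membrane class, type IV only, is 3.27% to 3.82% against 5.53% and 6.04%. COL1A1 is not in the sums.

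Ratios between chains that share a protein, a fibril or a basement membrane zone were compared within each library, 16 in all. They are values of single libraries, without a test. Of the 16, 2 lay above both wild types in all treated libraries and 2 lay below both. How many would do so by order alone was not worked out. Some ratios share a chain, such as COL4A1, and are not independent. COL3A1 stood to COL1A2 at 0.356 in lnc7831 knockdown, 0.227 in the library labelled Wnt5a overexpression and 0.257 in lnc3500 knockdown, against 0.313 and 0.279 in wild type. Lnc7831 knockdown was thus above both wild types and the other treated libraries below both. COL4A1 stood to COL4A2, its partner in the common type IV heterotrimer, at 1.40, 1.22 and 1.39 in the order used before, against 1.84 and 1.57 in wild type, lower in each treated library. COL8A1 stood to COL8A2 at 0.786, 0.492 and 0.259, against 0.180 and 0.241 in wild type, higher in each treated library. COL4A5 stood to COL4A1 at 0.695, 0.628 and 0.584, against 0.372 and 0.552 in wild type, again higher in each. COL5A2 stood to COL1A2 at 0.0579, 0.0616 and 0.0537, against 0.0671 and 0.0830 in wild type, lower in each.

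The remaining ratios overlapped with wild type or differed in direction between the treated libraries. COL6A1 stood to COL6A2 at 0.626, 0.722 and 0.570 in the treated libraries, against 0.725 and 0.648 in wild type. COL5A1 stood to COL5A2 at 0.566, 0.591 and 0.516, against 0.360 and 0.618. COL7A1 stood to COL4A1 at 0.247, 0.203 and 0.172 in the treated libraries, against 0.0237 and 0.199 in wild type, the low value again being wild-type library 1.

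Several collagen genes are neighbours in the genome. In the RefSeq table of the chicken assembly GRCg7b, which named all 36 chains, 6 pairs stand next to each other among protein-coding genes: COL4A1 with COL4A2, COL4A3 with COL4A4, COL4A5 with COL4A6, COL3A1 with COL5A2, COL6A1 with COL6A2, and COL9A1 with COL19A1. Both members were tested in 4 pairs. In lnc7831 knockdown the difference of the first from the second was -0.47 for COL4A1 and COL4A2, -0.34 for COL4A5 and COL4A6, -0.55 for COL5A2 and COL3A1, and 0.074 for COL6A1 and COL6A2. The annotated spans of COL4A1 and COL4A2, of COL4A3 and COL4A4, and of COL9A1 and COL19A1 overlap in that assembly. Whether the counting used strand is not given, so reads from such overlaps cannot be assigned with certainty.

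Genes that fold, export and cross-link procollagen were read as lists, again relative to the median gene. Of 22 listed genes of procollagen folding and modification 19 were tested. The 2-fold rule took 0 of them, where it took 1.32% to 2.18% of all tested genes in each direction. Above the wild-type mean lay 16 in lnc7831 knockdown (median 0.25), 7 in the library labelled Wnt5a overexpression (median -0.14) and 13 in lnc3500 knockdown (median 0.042). Of all tested genes 50.4%, 50.1% and 49.7% did, in that order. After rescaling to equal sums these counts were 3, 11 and 2 of 19, where 18.8%, 63.5% and 20.1% of all tested genes lay above the wild-type mean. SERPINH1, the collagen-specific chaperone HSP47, had 401, 687 and 428 FPKM in the 3 treated libraries, against 346 and 265 in wild type, a difference of 0.47 (SE 0.45) in lnc7831 knockdown. Of 20 genes of export, processing and cross-linking 14 were tested, and 11 lay above the wild-type mean in lnc7831 knockdown (median 0.34), 5 in the library labelled Wnt5a overexpression (median -0.10) and 7 in lnc3500 knockdown (median 0.020), or 6, 7 and 1 of 14 after rescaling to equal sums, beside the same shares of all genes. SPARC, which binds collagen and aids its secretion, had 4405, 8179.7 and 4858 FPKM in the 3 treated libraries, against 2605 and 2394 in wild type, highest in lnc7831 knockdown. SERPINH1 and SPARC were picked after their values were seen.

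Fibril partners, receptors and basement membrane proteins gave a mixed picture. Of 16 small leucine-rich proteoglycans and other fibril partners 11 were tested. Their medians were -0.052, 0.043 and 0.072 in the library labelled Wnt5a overexpression and in lnc7831 and lnc3500 knockdown. Above the wild-type mean lay 4, 6 and 7, where 50.1%, 50.4% and 49.7% of all tested genes did. After rescaling to equal sums the medians were 0.10, -0.43 and -0.36, where the median of all genes was 0.14, -0.40 and -0.38. THBS2, a matrix protein that governs fibril form, stood at 1.37 (SE 0.39) in lnc7831 knockdown, with 332 FPKM against 79.3 and 76.3 in wild type. It stood at 0.91 in the library labelled Wnt5a overexpression and at 0.63 in lnc3500 knockdown. DPT, a dermal protein that speeds fibril assembly, stood at -1.59 (SE 0.61) in the library labelled Wnt5a overexpression, with 18.3 FPKM against 55.2 and 25.9 in wild type. In lnc7831 and lnc3500 knockdown DPT stood at -0.50 and -0.63. The 6 tested of 11 collagen receptors had medians of 0.43, 0.30 and 0.47. Above the wild-type mean lay 5, 6 and 5, where 50.1%, 50.4% and 49.7% of all tested genes did. The size rule took 0 of the 6, where it took 1.32% to 2.18% of all tested genes in each direction. The receptor median in lnc7831 knockdown was -0.15 after rescaling to equal sums, where the median of all genes was -0.40.

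The 13 tested of 17 basement membrane partners had medians of 0.19, 0.59 and 0.43 in the same order. These medians were -0.19, 0.33 and -0.011 against wild-type library 2 alone, and 0.58, 0.84 and 0.63 against library 1 alone. Above the wild-type mean lay 8, 11 and 8 of the 13, where 50.1%, 50.4% and 49.7% of all tested genes did. The median in lnc3500 knockdown was -0.0084 after rescaling to equal sums, where the median of all genes was -0.38. The 8 tested of 15 TGF-beta genes had medians of 0.14, 0.26 and 0.42, with 4, 5 and 7 above the wild-type mean. After rescaling to equal sums their medians were 0.28, -0.20 and -0.0078, where the median of all genes was 0.14, -0.40 and -0.38. CTGF and TGFBI, which TGF-beta induces in fibroblasts, were past the rule in lnc3500 knockdown. CTGF had 579 FPKM against 155 and 188 in wild type and stood at 1.12 (SE 0.41). TGFBI had 549.6 FPKM against 91.0 and 145 in wild type and stood at 1.61 (SE 0.48). In the library labelled Wnt5a overexpression and in lnc7831 knockdown CTGF stood at 0.75 and 0.91, and TGFBI at 0.98 and 0.32. Limma called 0 members of these 6 lists after adjustment in any of the 3 comparisons. It called 0.00907%, 0.0363% and 0% of all tested genes in them.

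Markers of the other cell types were summed on centred FPKM, since the median gene differed as deposited. The 5 endothelial markers summed to 98.3, 99.6 and 98.1 centred FPKM in the treated libraries, against 96.8 and 132 in wild type. The 3 pericyte and smooth muscle markers measured summed to 565, 598 and 887 centred FPKM, against 810.3 and 652 in wild type, so that 2 treated libraries lay below both wild types and lnc3500 knockdown above both. As deposited these sums were 658, 754 and 1058 FPKM, against 608 and 512, above both wild types in each. The 3 bone markers summed to 44.7, 24.0 and 58.5 centred FPKM, against 30.1 and 64.4 in wild type, with IBSP, a bone sialoprotein, listed at 0 in lnc3500 knockdown. The 3 Schwann cell and 4 melanocyte markers summed to at most 15.8 and 31.9 centred FPKM in any library, with PMEL, a melanosome protein, listed at 0 throughout. Leukocyte markers summed to 45.0, 58.8 and 29.1 centred FPKM in the treated libraries, against 67.9 and 82.8 in wild type, below both wild types in each. As deposited the leukocyte sums were 52.4, 74.1 and 34.7 FPKM, against 50.9 and 64.9, with only lnc3500 knockdown below both. Of the 4 leukocyte markers, 4, 3 and 4 lay below the wild-type mean, where 50.1%, 50.4% and 49.7% of all tested genes lay above it.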

How the data were processed

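Libraries from total RNA followed Illumina protocols, per the labels' protocols. The authors deposited FPKM, 1 value per gene and library, in 1 table. TopHat2 2.1.0, Cufflinks 2.2.1 and galGal4 stand in the submitters' processing notes. Annotation, multiply mapped reads, strand and scaling between libraries are not given in the sources used here. Since the table has no counts, depth is unknown and counting error cannot be set beside the values.

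For centring, the median over genes of the ratio to the geometric mean was divided out of each library. A gene was tested if its mean reached 1 FPKM, on log2(FPKM + 1), a scale that understates folds of low genes. Testing used limma 3.58.1 in R 4.3.3 with its trend option and all 5 libraries together. P-values were two-sided and adjusted by Benjamini-Hochberg over 11031 genes. Only the wild types give a residual degree of freedom (1), beside 2.70 prior ones borrowed across genes. The treated libraries, 1 per group, were taken to vary like wild type. The step was tested on simulated data.

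The chains, classes, 6 pathway lists and 10 cell marker lists were chosen with earlier results of these data known. Values are given for the 8 highest chains, chains past the 2-fold rule, the 2 largest differences of each class and comparison, and list members past that rule; other names were chosen after their values were seen. Not every list member past the rule is reported here. Alternatives were other scalings, pseudocount and filters, limma without trend, other folds, and leaving out each wild type. Neighbours, overlaps and names came from the RefSeq table of GRCg7b, whose coordinates are not printed because the values were made on galGal4.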

Additional observations from a re-analysis of the deposited data

How the results depend on the processing

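No paired analysis was possible, since each treated group had 1 library and nothing says which libraries share a bird. The limma count of 0 chains stayed 0 in all 6 comparisons as deposited, after rescaling to equal sums, with a pseudocount of 0.1, without a filter, with a mean of at least 5 FPKM and without a trend. The lone treated libraries and the unknown depth limit every value here, and leaving out a wild type left no residual degrees of freedom, so those are values without a test.

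Chains at least 2-fold above both wild types numbered 1, 3 and 1 in the library labelled Wnt5a overexpression and in lnc7831 and lnc3500 knockdown. A 1.5-fold rule gave 2, 7 and 3, a 3-fold rule 0, 0 and 0, and values as deposited 2, 11 and 6. After rescaling to equal sums lnc7831 knockdown had 1 and lnc3500 knockdown 0 above and 1 below, and with a mean of at least 5 FPKM lnc3500 knockdown had 0. Leaving out a wild type, which loosens the rule so that counts can only stay or rise, gave 1 to 4, 6 to 9 and 2 to 7 above. Below lay 0 to 2 in Wnt5a overexpression and 0 to 2 in lnc3500 knockdown. For the settings other than the main, the share of all tested genes past the rule is not given. The median chain stood at 0.59, 1.20 and 0.77 as deposited, where the median of all genes was 0.54, 0.64 and 0.56. After rescaling it stood at 0.19, 0.078 and -0.19, where the median of all genes was 0.14, -0.40 and -0.38. The sign of the median chain thus turned in lnc3500 knockdown. In lnc7831 and lnc3500 knockdown it was 0.65 and 0.33 with a mean of at least 5 FPKM, 0.45 and 0.037 without a filter and 0.61 and 0.21 with a pseudocount of 0.1. Without COL1A2 the class shares in the same library order, wild types last, were 25.3%, 34.8%, 27.1%, 26.0% and 21.1% for fibrillar, 6.80%, 6.18%, 5.84%, 9.05% and 9.08% for type IV, 6.14%, 3.99%, 6.84%, 4.25% and 6.88% for fibril-associated and 61.8%, 55.0%, 60.2%, 60.7% and 62.9% for other chains.

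Sign turns are given for the 21 chains that the naming rule took and for the class medians. As deposited, the sign turned in Wnt5a overexpression for COL4A2 (0.19), COL6A1 (0.53), COL6A3 (0.32), basement membrane median (0.36) and other median (0.55), and in lnc7831 knockdown for COL21A1 (0.58) and COL4A1 (0.53), and in lnc3500 knockdown for COL13A1 (0.20), COL20A1 (0.25), COL4A1 (0.10), COL4A2 (0.38), COL4A6 (0.50) and basement membrane median (0.42). After rescaling, the sign turned in Wnt5a overexpression for COL6A1 (0.083) and other median (0.14), and in lnc7831 knockdown for COL12A1 (-0.0058), COL16A1 (-0.16), COL4A2 (-0.16), COL6A2 (-0.019), basement membrane median (-0.17) and fibril-associated median (-0.083), and in lnc3500 knockdown for COL18A1 (-0.21), COL5A1 (-0.020), COL5A2 (-0.15), COL6A1 (-0.31), COL6A2 (-0.040), COL6A3 (-0.41) and other median (-0.20). With a mean of at least 5 FPKM, the sign turned in Wnt5a overexpression for COL4A6 (-0.026) and other median (0.031). Without a filter, the sign turned in lnc3500 knockdown for fibril-associated median (-0.021). Leaving out either wild type, the sign turned in Wnt5a overexpression for COL13A1 (-0.37 to 0.49), COL14A1 (-0.36 to 0.96), COL16A1 (-0.30 to 1.12), COL18A1 (-0.46 to 1.26), COL3A1 (-0.14 to 0.36), COL4A6 (-0.46 to 0.48), COL6A1 (-0.21 to 0.068), COL7A1 (-0.18 to 2.14) and fibril-associated median (-0.18 to -0.15). The same turned in lnc7831 knockdown for COL16A1 (-0.40 to 1.01), COL21A1 (-0.78 to 0.64) and COL4A1 (-0.35 to 0.0016). The same turned in lnc3500 knockdown for COL13A1 (-0.76 to 0.092), COL18A1 (-0.63 to 1.08), COL20A1 (-0.18 to 0.042), COL4A6 (-0.59 to 0.35), COL6A1 (-0.0056 to 0.27), COL6A3 (-0.019 to 0.079), COL7A1 (-0.53 to 1.79) and fibril-associated median (-0.038 to 0.070). A change of scaling shifts all genes of a library together. As deposited, the median of all tested genes was 0.54, 0.64 and 0.56 in Wnt5a overexpression and in lnc7831 and lnc3500 knockdown. After rescaling it was 0.14, -0.40 and -0.38 in the same order. The cause of the other changes was not tested.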

Other observations

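COL4A3BP, which the name rule matched although it encodes a ceramide transfer protein, had 4.87 FPKM in the library labelled Wnt5a overexpression, 7.28 with lnc7831 and 5.31 with lnc3500 knocked down, against 3.98 and 5.39 in wild type. Its relative log2 differences were -0.44 (SE 0.34), -0.057 (SE 0.34) and -0.37 (SE 0.34) in the same order, all within the size rule.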
